A study of Homo sapiens with 6 samples.

Results

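The miR-34 and miR-449 family was followed in Hep3B cells, an established line from a human hepatocellular carcinoma, after the cells had received the expression plasmid pcDNA3.1 carrying HDAC6 or the empty plasmid (Mock). HDAC6 is a mainly cytoplasmic deacetylase whose best known substrate is tubulin. Probes were taken as members by name, when the name without its species prefix and leading zeros had the stem miR-34a, miR-34b, miR-34c, miR-449a or miR-449b and carried no asterisk. This gave 5 members among 581 probes with values: miR-34a, miR-34b, miR-34c-3p, miR-449a and miR-449b. The starred probes miR-34b* and miR-449b* are described beside them. Guide strand below means an unstarred mature name, and does not state which arm of a hairpin is the functional one. A precursor probe of these miRNAs was not analysed here.

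There were 3 HDAC6 arrays and 3 Mock arrays. Per the labels, both groups were Hep3B cells transfected with a lipid reagent, so the control arrays share the vehicle and the vector backbone. Total RNA came from 3 separate extractions per condition, which were mixed in equal amounts before 10 ug was labelled, so the arrays of a group may be repeated hybridizations of 1 pool. P-values therefore measure the scatter of arrays, which may be of technical origin. The signals are quantile normalized per the labels and stand on a log2 scale, so each difference is measured against the rest of the array. The arrays still differed at the dim end. Their 25th percentile was 6.79, 6.49 and 6.68 in Mock and 6.39, 6.46 and 6.46 in HDAC6. The part of this in the differences of dim probes was not tested. Fewer cells that contain a miRNA and less of it per cell cannot be told apart. HDAC6 itself was not measured on this miRNA array.

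MiR-34a, miR-34b and miR-34c are known as growth-restraining miRNAs that repress regulators of the cell cycle and of survival, among them cyclin D1, CDK6, MYC, BCL2, MET and SIRT1. MiR-449a and miR-449b carry the same seed as miR-34a, the stretch at the start of a miRNA that pairs with its targets. They are best known from multiciliated epithelium, where they act together with miR-34b and miR-34c, and miR-449a is known to repress HDAC1. Each hairpin can give rise to a miRNA from its 5' arm and another from its 3' arm, and the arms have different seeds and different targets. By their names, the probes miR-34b and miR-34c-3p stand for 3' arms, so the targets listed above were not assigned to them.

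The mature sequences are shown because the seed groups and the near-identical pairs below are read from them. All 7 family probes were matched by name to RefSeq sequences on GRCh38.p14, and capitals mark the seed, bases 2 to 8. In the naming that sets miR-34b beside miR-34b*, the unstarred name stands for the 3' arm and the starred name for the 5' arm. That assignment rests on the names, because the sequences of the array's probes were not used here. The 5' arms come first:
miR-34a, chr1:9151735-9151756, minus strand: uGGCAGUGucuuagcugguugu
miR-449a, chr5:55170586-55170607, minus strand: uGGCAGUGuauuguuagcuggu
miR-449b, chr5:55170706-55170727, minus strand: aGGCAGUGuauuguuagcuggc
miR-34b*, chr11:111512950-111512972, plus strand: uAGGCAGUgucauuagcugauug
The 3' arms are:
miR-34b, chr11:111512987-111513008, plus strand: cAAUCACUaacuccacugccau
miR-34c-3p, chr11:111513484-111513505, plus strand: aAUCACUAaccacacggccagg
miR-449b*, chr5:55170667-55170688, minus strand: cAGCCACAacuacccugccacu

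MiR-34a, miR-449a and miR-449b share the seed GGCAGUG. In miR-34b* the same letters begin 1 base later, at base 3, so that its seed is AGGCAGU. The closest pair was miR-449a and miR-449b, which were identical at 20 of 22 bases and differed by U1A and U22C, counted from the 5' end with the base of miR-449a first. The 3' arms miR-34b and miR-34c-3p were identical at 17 of 21 bases when 1 was shifted by 1 base against the other, which gives them overlapping but different seeds. MiR-34a matched miR-449a at 15 of 22 bases. Of the other human miRNAs in RefSeq with one of these seeds, miR-449c-5p and miR-2682-5p share that of miR-34b*, and no probe of theirs was analysed here. The reference used held no mature miR-34c-5p, the 5' arm of MIR34C, so its seed was not compared. The MIR34C hairpin does hold the letters GGCAGUG ahead of miR-34c-3p, and no miR-34c-5p probe had values.

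The genes lie at 3 loci. MIR34A lies within the bounds of MIR34AHG on chromosome 1. MIR34B and MIR34C start 501 bases apart on chromosome 11, both inside MIR34BHG and inside the bounds of BTG4. MIR449A and MIR449B start 114 bases apart on chromosome 5, inside the bounds of CDC20B. The annotation used here gives gene bounds only, so exons and introns are not stated. The hairpins of MIR34B and MIR449B are shown because both of their arms were measured, with the arms in capitals:
MIR34B, chr11:111512938-111513021, plus strand: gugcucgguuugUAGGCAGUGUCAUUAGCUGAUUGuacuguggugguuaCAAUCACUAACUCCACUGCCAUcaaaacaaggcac
MIR449B, chr5:55170646-55170742, minus strand: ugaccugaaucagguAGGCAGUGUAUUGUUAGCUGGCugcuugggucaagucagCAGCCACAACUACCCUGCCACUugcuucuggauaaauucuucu

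Over the members, 3 fell with HDAC6 (miR-34a, miR-449a and miR-34b), 0 rose and 2 did not pass the test (limma, Benjamini-Hochberg adjusted p under 0.05 over all 581 probes). At an unadjusted p under 0.05 in the same fit, 1 was higher, miR-34c-3p, and the same 3 were lower, beside 24.3% of all probes higher and 29.6% lower at that threshold. Of all probes, 24.4% were called lower and 21.3% higher, or 45.8% in either direction, and of guide strands 29.5% were called lower. The median log2 difference of the 5 members was -0.79, against -0.09 for all probes and -0.21 for all 386 guide strands. The groups did not overlap for any of the 5 members, which was also true of 56.8% of all probes (29.8% lower and 27% higher in HDAC6).

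**Figure D1:**
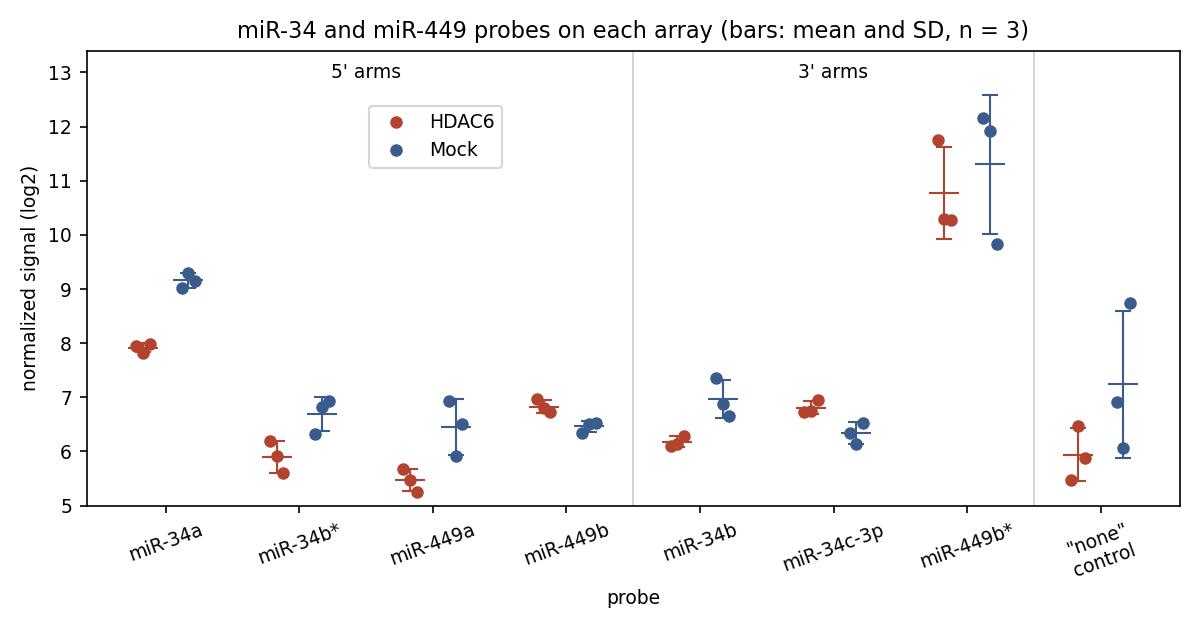
Normalized log2 signal of each family probe on each array, HDAC6 left of Mock, with 5' arms, 3' arms and the control row named "none" in separate fields; points are arrays and bars the mean and SD (n = 3). MiR-34a is well separated, at 7.92 ± 0.08 in HDAC6 and 9.16 ± 0.14 in Mock, while most other family probes lie between 5.26 and 7.35, where the "none" row also lies except in Mock 3.

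Among the 5' arms with the shared seed, miR-34a fell most clearly. Its signal was 7.94, 7.83 and 7.99 in the HDAC6 arrays, against 9.02, 9.30 and 9.16 in the Mock arrays. The lowest Mock array lay 1.03 above the highest HDAC6 array, many times the spread within either group. The difference was -1.24 (SE 0.183, 95% interval -1.66 to -0.82), which is 2.36-fold lower (limma, adjusted p = 0.00297). Of all probes, 10.7% had a lower difference. Its signal lay between the 56.4th and 60.0th percentile of the HDAC6 arrays, against the 76.5th to 80.3rd percentile of the Mock arrays. The call held in all 15 alternative settings, with differences from -1.31 to -0.99.

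MiR-449a, which has the same seed, had signals of 5.67, 5.48 and 5.26 in the HDAC6 arrays and of 6.93, 5.91 and 6.51 in the Mock arrays. The HDAC6 arrays were all lower, but the gap to Mock 2 was only 0.24, less than the SD of 0.51 among Mock arrays. The difference was -0.98 (SE 0.286, 95% interval -1.65 to -0.32), or 1.98-fold lower (limma, adjusted p = 0.0251). The probe was among the dimmest, between the 0.775th and 4.73rd percentile of the HDAC6 arrays and between the 6.28th and 29.8th percentile of the Mock arrays. The call was lost without Mock 1 (adjusted p = 0.0763), Mock 3 (0.0561), HDAC6 2 (0.0532) or HDAC6 3 (0.0837). It was also lost after a second quantile normalization (0.0568), after centring on control probes (0.0530), and after adding the 25th percentile of the linear signals as an offset (0.0645), where the difference was -0.41.

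MiR-449b, from the neighbouring hairpin, went the other way without passing the test. Its signals were 6.96, 6.80 and 6.72 in the HDAC6 arrays, against 6.35, 6.51 and 6.53 in the Mock arrays. The HDAC6 arrays were all higher, with a gap of 0.19 between the groups. The difference was 0.37 (SE 0.182, 95% interval -0.06 to 0.79; limma, adjusted p = 0.136). With array weights it passed, at 0.47 (adjusted p = 0.0404).

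The starred 5' arm miR-34b*, whose seed is shifted by 1 base, had signals of 6.20, 5.91 and 5.60 in the HDAC6 arrays and of 6.33, 6.81 and 6.93 in the Mock arrays. The groups did not overlap, but HDAC6 1 and Mock 1 were 0.13 apart. It fell by 0.79 (SE 0.248; limma, adjusted p = 0.0323). The call was lost in 9 of 14 settings, among them leaving out Mock 2 (adjusted p = 0.0800), Mock 3 (0.0831), HDAC6 2 (0.0651) or HDAC6 3 (0.108). The offset lowered the difference to -0.36 (0.0628).

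Of the 3' arms, miR-34b fell and miR-34c-3p did not pass. MiR-34b had signals of 6.10, 6.13 and 6.29 in the HDAC6 arrays, against 7.35, 6.88 and 6.66 in the Mock arrays. All HDAC6 arrays were lower, with a gap of 0.37, and most of the spread lay among the Mock arrays (SD 0.10 in HDAC6 and 0.35 in Mock). The difference was -0.79 (SE 0.228, 95% interval -1.32 to -0.26), or 1.73-fold lower (limma, adjusted p = 0.0250). The call was lost without Mock 1 (adjusted p = 0.0735), HDAC6 1 (0.0842), HDAC6 2 (0.0554) or HDAC6 3 (0.0527). A second quantile normalization (0.0729) and centring on control probes (0.119) ended it too, and the offset lowered the difference to -0.40.

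MiR-34c-3p had signals of 6.73, 6.74 and 6.96 in the HDAC6 arrays and of 6.35, 6.13 and 6.53 in the Mock arrays. The HDAC6 arrays were all higher, by a gap of 0.20. The difference was 0.47 (SE 0.196, 95% interval 0.02 to 0.93; limma, adjusted p = 0.0826). It passed after a second quantile normalization, at 0.66 (0.0272), and with array weights, at 0.46 (0.0458). The offset lowered it to 0.24 (0.114).

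MiR-449b*, the 3' arm of the miR-449b hairpin, was bright and varied widely within both groups. Its signals were 11.75, 10.30 and 10.27 in the HDAC6 arrays, against 12.17, 11.91 and 9.82 in the Mock arrays, and the groups overlapped. The difference was -0.53 with an SE of 0.662 (95% interval -2.06 to 1.01; limma, adjusted p = 0.546), so these arrays do not show whether it changed.

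**Figure D2:**
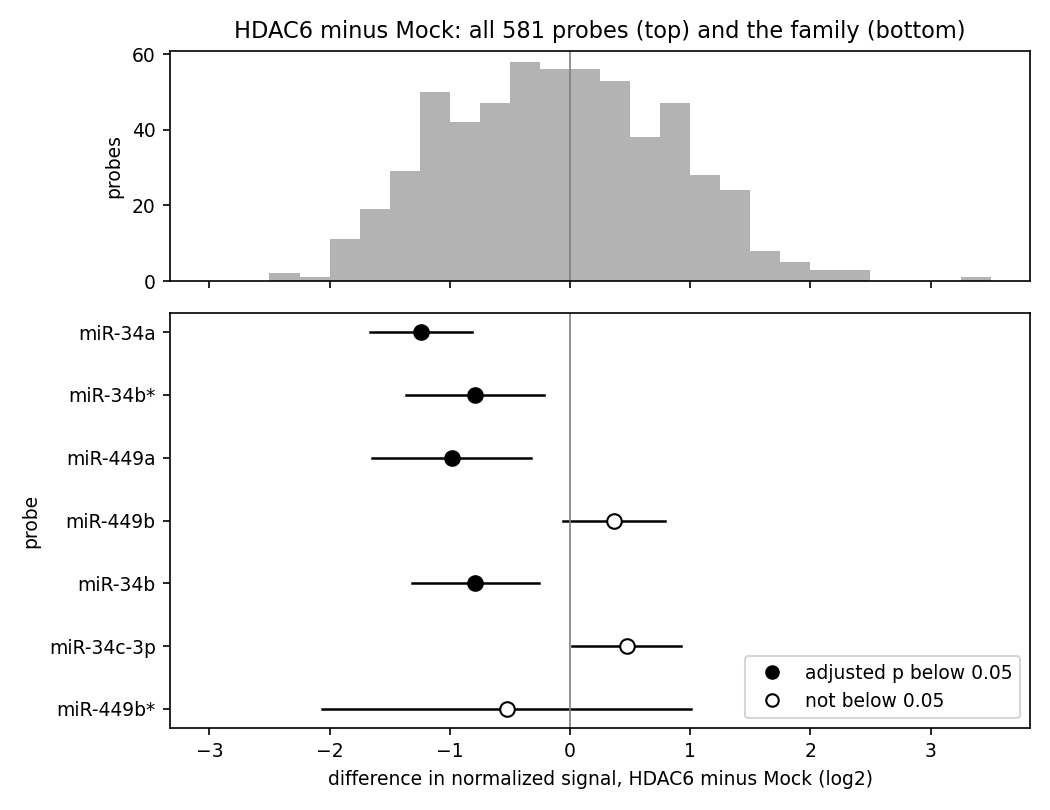
Top, histogram of the log2 difference HDAC6 minus Mock for all 581 probes; bottom, the 7 family probes with their 95% confidence intervals, filled where the adjusted p is below 0.05. MiR-34a at -1.24, miR-449a at -0.98, and miR-34b and miR-34b* at -0.79 each are filled, while miR-34c-3p at 0.47 and miR-449b at 0.37 lie on the other side of 0.

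Except for miR-34a and miR-449b*, the family probes were dim. The array carried a control row named "none", whose content is not given in the sources used here. It read 5.48, 6.46 and 5.88 in the HDAC6 arrays and 6.92, 6.07 and 8.73 in the Mock arrays, with a difference of -1.30 (SE 0.624; limma, adjusted p = 0.124). Signals of miR-34b, miR-34c-3p, miR-449a, miR-449b and miR-34b* lay in or near that range, so how far they stood above background is unknown. MiR-34a, at 7.83 to 7.99 in the HDAC6 arrays, lay above every reading of that row except the 8.73 of Mock 3. Its difference was -1.24, beside the -1.30 of the "none" row. Among the 290 probes dimmer than the median probe, 32.8% passed the test. The part of background in the differences of these probes was not tested.

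Whether members moved apart was asked within each array, where a shift of the whole array cancels. Of 21 pairs of family probes, 8 reached 0.1 in an exact two-sided permutation test, the lower limit of p with 3 arrays in each group, and the adjusted p over the 21 pairs was 0.263 for each of these. No pair can therefore pass 0.05 by this test, and the values below are descriptions of 6 arrays. Each of the 8 pairs set a probe that was lower on every HDAC6 array against a probe that was higher on every HDAC6 array. Differences between such probes cannot overlap between the groups, so their p of 0.1 was fixed by the single-probe signals given above. The test is therefore no separate evidence that members moved apart.

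The near-identical pair miR-449a and miR-449b went opposite ways on these arrays, although miR-449b did not pass the single-probe test. MiR-449a minus miR-449b was -1.36 ± 0.09 in HDAC6 and -0.01 ± 0.60 in Mock (SD, n = 3), a change of -1.35 (exact permutation p = 0.1). It ran from -1.46 to -1.29 over the HDAC6 arrays and from -0.60 to 0.59 over the Mock arrays. MiRNAs this alike can bind each other's probes, and that was not tested. With the offset the change was -0.60.

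The neighbouring 3' arms also went opposite ways on these arrays, although miR-34c-3p did not pass the single-probe test. MiR-34b minus miR-34c-3p was -0.63 ± 0.03 in HDAC6 and 0.63 ± 0.45 in Mock, a change of -1.26 (exact permutation p = 0.1). The groups did not overlap. The widest separation was that of miR-34a from miR-34c-3p, at 1.11 ± 0.09 in HDAC6 and 2.82 ± 0.30 in Mock, a change of -1.71 (exact permutation p = 0.1), which was -1.22 with the offset. Levels of different probes cannot be set against each other, so only the change of each difference is read here.

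In the remaining 5 pairs at p = 0.1 in the exact permutation test, 1 probe was a member that fell or miR-34b* and the other was miR-34c-3p or miR-449b. MiR-34a minus miR-449b changed by -1.61 and miR-34b minus miR-449b by -1.15. MiR-34c-3p minus miR-449a changed by 1.46 and miR-34c-3p minus miR-34b* by 1.26. MiR-449b minus miR-34b* changed by 1.15. Among the pairs whose groups overlapped, miR-34a minus miR-449a was 2.45 ± 0.25 in HDAC6 and 2.71 ± 0.66 in Mock, a change of -0.26 (exact permutation p = 0.7). MiR-34c-3p minus miR-449b changed by 0.11 (exact permutation p = 0.6).

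**Figure D3:**
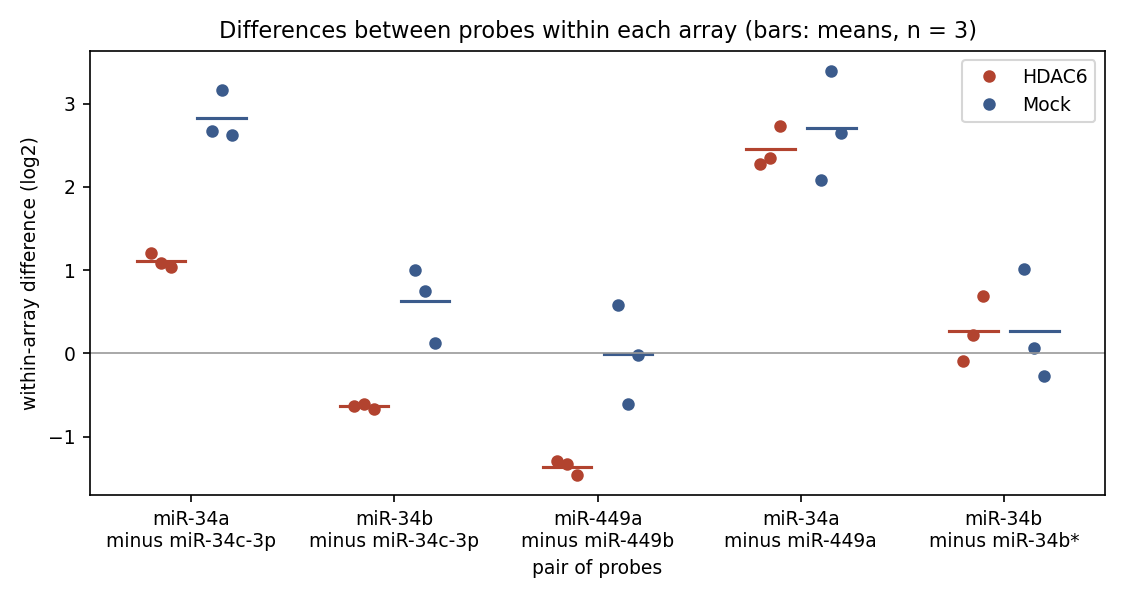
Log2 difference between 2 family probes within each array, HDAC6 left of Mock; points are arrays and bars means (n = 3). The first 3 pairs do not overlap between groups, with changes of -1.71, -1.26 and -1.35, whereas miR-34a minus miR-449a and miR-34b minus miR-34b* overlap.

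The arms of 1 hairpin were compared by limma over the 58 miRNAs with an unstarred and a starred probe, of which 20.7% passed. For miR-34b the unstarred minus the starred probe was -0.09, 0.22 and 0.69 in the HDAC6 arrays, against 1.02, 0.07 and -0.28 in the Mock arrays. The groups overlapped throughout, and the difference between them was 0.00 (SE 0.426, 95% interval -0.97 to 0.97; limma, adjusted p = 0.997). The interval leaves room for the arms to differ by almost 1 unit in either direction. For miR-449b the same comparison gave 0.89 (SE 0.670, 95% interval -0.63 to 2.41; limma, adjusted p = 0.387), with the starred probe's spread dominating.

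Probes whose signals followed the members most closely over the 6 arrays were found by Pearson's r among the other mature probes. These values describe 6 arrays in 2 groups, so a difference between the groups alone gives a high r, and no p is given. For miR-34a they were let-7i (r = 0.991), miR-2116* (0.981) and miR-146b-5p (0.981), all of which fell with HDAC6. For miR-34b they were miR-1321 (0.984), miR-26b* (0.981) and miR-107 (0.956), which also fell. For miR-449a they were miR-138 (0.997), miR-660 (0.986) and miR-488* (0.982), of which miR-138 did not pass, at -0.41 (limma, adjusted p = 0.118). MiR-34c-3p was followed by miR-920 (0.970), miR-92b* (0.960) and miR-1538 (0.955). MiR-449b was followed by miR-564 (0.960), miR-219-2-3p (0.957) and miR-648 (0.947), and these 6 probes rose.

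The array held few cell type markers. MiR-122, the main hepatocyte miRNA, was at 7.66, 8.12 and 7.67 in the HDAC6 arrays and at 7.31, 7.30 and 7.65 in the Mock arrays, close to the array medians of 7.51 to 7.58, and did not pass (limma, adjusted p = 0.166). Of the multiciliated list 3 of 4 were measured, and all 3 are family members. The summed signal of the 5 hepatocyte markers ran from 11.3 to 12.7 in HDAC6 and from 13.5 to 13.9 in Mock on the log2 scale. Of these 5, 3 fell, 0 rose and 2 did not pass, with a median difference of -1.64. Beside this, 24.4% of all probes were called lower and 21.3% higher, and 29.5% of guide strands were called lower. MiR-192 fell by 1.90 (limma, adjusted p = 0.00953), miR-148a by 1.66 (0.00272) and miR-194 by 1.64 (0.0137), while miR-122 was at 0.40 and miR-885-5p at -0.51. The summed signal of 4 of 5 fibroblast and smooth muscle markers ran from 10.1 to 10.6 in HDAC6 and from 9.49 to 9.59 in Mock. The median difference of these markers was -0.02. Sums were taken on the linear scale, so the brightest probe weighs most. It was miR-214 here (mean 9.82 in HDAC6 and 8.58 in Mock) and miR-192 among the hepatocyte markers (11.26 and 13.15). MiR-214 passed at 1.24, while miR-145 at 0.34, miR-143 at -0.38 and miR-199a-5p at -0.62 did not. Of 5 haematopoietic markers 1 was measured, and the names in the endothelial, striated muscle and neural lists matched 0 guide-strand probes. The neural list held the name miR-128, which did not match the probe miR-128a. That probe was at -1.53 (limma, adjusted p = 0.00347). The part of these differences in the family's values was not tested.

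**Figure D4:**
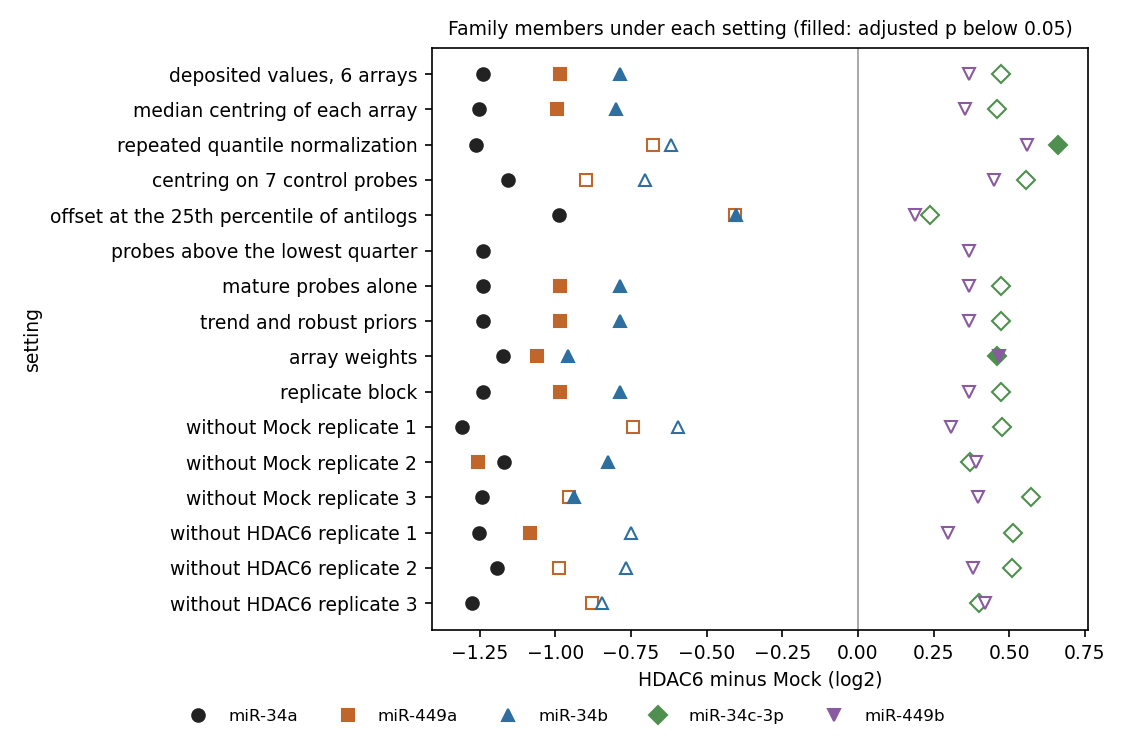
Log2 difference HDAC6 minus Mock of the 5 members under the deposited values and each alternative setting, filled where the adjusted p is below 0.05; 3 members have no value in the setting without the dimmest probes, because they are among those. MiR-34a is filled in every row, miR-449a and miR-34b lose the fill in 7 and 6 rows, and no member crosses 0.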

How the data were processed

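Groups and replicate numbers come from the sample titles. Per the labels, arrays were scanned on an Axon scanner, read with GenePix Pro 5.0, cleared of poor spots by eye, averaged over 3 signals per probe, and quantile normalized and class-filtered in GenePlex 3.0. How background was handled and what the filter removed is not given in the sources used here. A log2 scale was read from the deposited numbers themselves, since 79.7% of the antilogs, times 18, came within 0.02 of a whole number. Of 582 rows 1 was blank.

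HDAC6 was compared with Mock with R 4.3.3 and limma 3.58.1 (two-sided moderated test, no covariate), with Benjamini-Hochberg adjustment over 581 probes and a threshold of 0.05, and the fit was tested on simulated data. Differences between probes were formed within arrays. Named miRNAs were the family, miR-122 and, for each member, the 3 probes with the highest r. The plan also named miR-192 and miR-145. The other marker miRNAs fall outside this rule, although their lists were planned, and were named after their values were seen. Some planned pathway counts are not reported here. Members, lists and tests were chosen with earlier results of these data known. The number of arrays limits the precision. Alternatives covered scaling, an offset, filters, variance models, array weights, a replicate block and leaving out each array.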

Additional observations from a re-analysis of the deposited data

How the results depend on the processing

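MiR-34a kept its direction and its call in all 15 settings. With repeated quantile normalization miR-34b (-0.62) and miR-449a (-0.68) lost their calls and miR-34c-3p (0.66) gained one; that setting moved the median of all probes to 0.08, against -0.09 as deposited. Centring on control probes ended the calls of miR-34b (-0.70) and miR-449a (-0.90) and left 166 probes past the threshold, 85 lower and 81 higher, against 266 (142 and 124). The offset, which shrinks differences of dim probes by construction, ended the call of miR-449a (-0.41). Array weights brought miR-34c-3p (0.46) and miR-449b (0.47) past the threshold. For the other changes the cause was not tested. Leaving out 1 array gave miR-34a -1.31 to -1.17, miR-34b -0.94 to -0.59, miR-449a -1.25 to -0.74, miR-34c-3p 0.37 to 0.57 and miR-449b 0.30 to 0.42, with 93 to 139 probes lower.

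Within arrays, the offset moved miR-34a minus miR-34c-3p to -1.22, miR-34a minus miR-449b to -1.18, miR-34b minus miR-34c-3p to -0.64, miR-34b minus miR-449b to -0.59, miR-34c-3p minus miR-449a to 0.64, miR-34c-3p minus miR-34b* to 0.60, miR-449a minus miR-449b to -0.60 and miR-449b minus miR-34b* to 0.55. Repeated quantile normalization moved miR-34a minus miR-449b to -1.82. For miR-34b the unstarred minus starred difference, near 0, turned to -0.073 with repeated quantile normalization and ran from -0.27 to 0.38 without 1 array. MiR-34b* lost its call at -0.54 after the second quantile normalization, -0.71 after centring on control probes, -0.36 with the offset and -0.54 with array weights, and ran from -0.97 to -0.64 without 1 array. With the replicate number as a block, miR-34a stayed at -1.24 and no member's call changed, but miR-34b* at -0.79 lost its own (limma, adjusted p = 0.0649). Deviations of arrays with the same number correlated at 0.16, -0.09 and 0.19, so the numbers were not taken to pair the arrays. Differences between mature and precursor probes were not run, because the table held no precursor probe of the family. Probe brightness over background is unknown and limits what the dim members can show.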
